A study of Mus musculus with 61 samples.

Results

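Myh11, Acta2, Myl9, Bgn, Ecm2 and Aoc3 are genes of contractile mural cells and of the vessel wall. The 6 genes, of 15149 in the table, were chosen by their measured values, because each was lower in DBA/2J libraries of nicotinamide-treated mice than in 4-month DBA/2J libraries. That difference is therefore given as a description, with no test. The data are RNA sequencing of cells sorted from mouse retinas, in 61 libraries of 5 groups. Of the DBA/2J libraries, 7 came from mice aged 9 months that received nicotinamide at 500 mg per kg per day, 25 from mice aged 9 months on water and 10 from mice aged 4 months on water. D2-Gpnmb+ mice gave 9 libraries at 9 months and 10 libraries at 4 months, all on water. DBA/2J is an inbred strain with an inherited, age-dependent glaucoma and a stop mutation in Gpnmb, D2-Gpnmb+ is its matched control strain with an intact Gpnmb, and nicotinamide is a form of vitamin B3 from which cells make NAD. Per the labels' protocols every retina came from an eye without axon degeneration, and the sort kept Thy1.2-positive cells and discarded cells stained for Cd11b, Cd11c, Cd34, Cd45.2 or GFAP. The cocktail held no antibody to the product of any of the 6 genes. Nothing in the labels ties a library to an animal, and all p-values here reflect the spread between libraries alone.

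Arteries and arterioles are wrapped by smooth muscle cells and capillaries by pericytes, and together these are called mural cells. Their contraction rests on a smooth muscle myosin that pulls on actin filaments when its light chain is phosphorylated, and their contractile genes are switched on by serum response factor and its partner myocardin, which act at a short DNA element called the CArG box. In the retina mural cells set vessel calibre and blood flow and share a basement membrane with the endothelium. Among the 6 genes, Myh11 encodes the smooth muscle myosin heavy chain, Acta2 encodes smooth muscle alpha-actin, and Myl9 encodes a regulatory myosin light chain. Bgn encodes biglycan, a small leucine-rich proteoglycan of connective tissue, and Ecm2 encodes a leucine-rich protein of the extracellular matrix. Aoc3 encodes vascular adhesion protein 1, an amine oxidase on the surface of vascular cells. In bulk libraries, fewer cells of a type and less RNA per cell cannot be told apart.

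The bases upstream of Acta2 and Myl9 are shown because the CArG box is an element that contractile genes are known to share. A link between these bases and the levels was not tested. Sequences are RefSeq's for build GRCm38.p6, positions count from the RefSeq start (the last base before it is -1), and capitals mark a CArG box or a match with 5 of its 6 inner bases A or T. The pattern reads the same on both strands. For Acta2, on the minus strand, 30 bases around each match are printed, at chr19:34255438-34255467 and chr19:34255388-34255417, since GENCODE vM21 places both inside its first, noncoding exon. For Myl9, on the plus strand, the stretch at chr2:156775214-156775419 before the first annotated exon is printed.
Acta2, first match: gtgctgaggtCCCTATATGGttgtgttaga
Acta2, second match: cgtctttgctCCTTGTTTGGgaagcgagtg
Myl9: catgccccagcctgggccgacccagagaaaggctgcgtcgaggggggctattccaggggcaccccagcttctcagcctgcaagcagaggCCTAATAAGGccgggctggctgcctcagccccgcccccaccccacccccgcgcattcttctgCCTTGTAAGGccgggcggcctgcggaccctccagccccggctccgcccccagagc

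Myl9 held a full CArG box at -161 to -152 and a match with 5 inner bases at -99 to -90. Acta2 held matches with 5 inner bases at -84 to -75 and at -34 to -25. Of 32851 promoter windows from 250 bases before to 50 bases after a start, 1.63% held a full box and 9.98% held at least the 5-base match. CATTCC, searched on both strands, lay at -146 to -141 of Acta2 in its reverse form, and 14.7% of windows held it. Windows of Bgn and Ecm2 held none of these letters, which says nothing of the factors that act there. Myh11 and Aoc3 had no entry in the sequence table. A match is a string of letters and no measured binding site.

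A library held between 5133114 and 19501444 reads, and the median library 9730486. The columns fall into 3 consecutive stretches, called blocks here, whose meaning the labels do not state. The 9-month water samples are spread over all blocks, with 6 DBA/2J and 4 D2-Gpnmb+ in block 1, 16 and 2 in block 2, and 3 of each strain in block 3, which also has every nicotinamide and 4-month library. Block 1 stood apart for the 6 genes, so values within blocks or without block 1 stand beside the results. At 4 months DBA/2J libraries held 3.69 to 14.5 of Gpnmb itself, below every D2-Gpnmb+ library (34.7 to 130). At 9 months on water DBA/2J libraries held 8.39 to 78.3 and D2-Gpnmb+ libraries 11.9 to 83.5, so that Gpnmb did not separate the labelled strains there. Markers of other cells were plentiful: a list of 10 rod genes summed to a median of 6975 per library, against 258 for 10 ganglion cell genes. The ganglion cell list includes Isl1, also a bipolar cell gene, which averaged 283 in 4-month DBA/2J libraries, where Thy1 averaged 32.8. Bipolar cell genes were plentiful too, with Prkca at a mean of 2603 in the same libraries. Levels throughout are the deposited normalised read counts. They summed to 717752 to 820641 per library in block 1 and to 861761 to 1560902 in blocks 2 and 3.

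The heavy chain gene Myh11 was low in nicotinamide libraries, at 0.787 in the lowest, 1.59 in the median and 4.39 in the highest. DBA/2J libraries on water had a median of 2.27 at 9 months (0 to 44.1) and 6.37 at 4 months (3.66 to 14.7). D2-Gpnmb+ libraries had a median of 3.27 at 9 months (1.035 to 41.4) and 5.61 at 4 months (1.29 to 8.45). The 0 was a DBA/2J library of block 2 with 19501444 reads, in which a count of 0 allows up to 0.194. The 9-month water libraries split by block: block 1 held 7.88 to 44.1 in DBA/2J, and 8.31, 8.67, 16.8 and 41.4 in D2-Gpnmb+, all above the block 2 range of 0 to 7.82 over both strains. In block 3 the DBA/2J libraries of 9 months had 1.055, 1.55 and 9.42, and the D2-Gpnmb+ libraries of 9 months had 1.035, 1.085 and 2.81.

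Acta2, the actin isoform of smooth muscle, followed the same order. Nicotinamide libraries held 0.63 at the lowest, 1.26 at the median and 3.47 at the highest. DBA/2J libraries on water had a median of 2.81 at 9 months (0 to 43.8) and 4.395 at 4 months (1.38 to 11.6). D2-Gpnmb+ libraries had a median of 2.94 at 9 months (0.814 to 52.7) and 3.66 at 4 months (0 to 8.20). Block 1 held the highest library of either strain, but not every block 1 library was high: the 6 DBA/2J libraries were 2.11, 19.1, 33.5, 34.6, 43.6 and 43.8, and the 4 D2-Gpnmb+ libraries were 7.57, 8.67, 19.7 and 52.7. In block 2 the 16 DBA/2J libraries ran from 0 to 9.89, and in block 3 the 3 of each strain were 1.55, 1.90 and 6.78 in DBA/2J and 0.814, 2.76 and 2.94 in D2-Gpnmb+. The zeros, a block 2 DBA/2J library and a 4-month D2-Gpnmb+ library, allow up to 0.3275 and 0.646.

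Myl9, the light chain gene, had the highest level per length of the 6. Per kilobase of merged exon the median over 61 libraries was 4.96 for Myl9, 2.73 for Aoc3, 1.33 for Acta2, 1.05 for Ecm2, 0.906 for Bgn and 0.485 for Myh11. Nicotinamide libraries held 1.57, 2.12 and 6.61 of Myl9 at the lowest, median and highest. DBA/2J libraries on water had medians of 8.95 at 9 months (0.625 to 49.6) and 5.80 at 4 months (2.24 to 10.95). In D2-Gpnmb+ the medians were 6.65 at 9 months (1.63 to 28.8) and 5.12 at 4 months (0.646 to 10.1). Among DBA/2J libraries of 9 months on water, Myl9 averaged 28.6 ± 16.8 in block 1, 7.05 ± 5.43 in block 2 and 5.15 ± 3.45 in block 3 (SD, n = 6, 16 and 3). In block 2 the 16 DBA/2J libraries had a Myl9 median of 6.22, above 6 of the 7 nicotinamide libraries, while their Myh11 median of 1.81 lay near the 1.59 of the nicotinamide libraries.

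Of the matrix genes, Bgn had 0.4235 at the lowest, 2.59 at the median and 4.98 at the highest of the nicotinamide libraries. DBA/2J libraries on water had a Bgn median of 5.87 at 9 months (1.01 to 39.2) and of 7.001 at 4 months (3.29 to 27.45). D2-Gpnmb+ libraries had a Bgn median of 7.59 at 9 months (2.02 to 25.55) and of 5.01 at 4 months (2.585 to 11.6). Among DBA/2J libraries of 9 months on water, Bgn averaged 19.5 ± 11.6 in block 1 and 4.84 ± 2.15 in block 2 (SD, n = 6 and 16). In block 3 they were at 5.97, 6.01 and 7.81, above all 7 nicotinamide libraries.

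Ecm2 ran from 1.87 to 7.69 in nicotinamide libraries with a median of 2.71. Its medians in DBA/2J on water were 3.36 at 9 months (0.3205 to 23.3) and 7.22 at 4 months (4.78 to 20.3), and in D2-Gpnmb+ 6.145 at 9 months (3.31 to 18.6) and 8.77 at 4 months (1.08 to 15.65). Among DBA/2J libraries of 9 months on water, Ecm2 averaged 11.25 ± 7.23 in block 1, 3.49 ± 2.69 in block 2 and 5.905 ± 3.10 in block 3 (SD, n = 6, 16 and 3). Of the 6 block 1 libraries 4 lay above the highest of the 3 in block 3, at 7.90.

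The amine oxidase gene Aoc3 was read in every library, as were Myl9, Bgn and Ecm2, and no library held less than 3.58 of Aoc3. Nicotinamide libraries held 3.58, 5.97 and 11.8 at the lowest, median and highest. DBA/2J libraries on water had medians of 14.6 at 9 months (8.265 to 39.1) and 12.25 at 4 months (9.23 to 18). D2-Gpnmb+ libraries had medians of 10.04 at 9 months (7.99 to 31.6) and 14.9 at 4 months (6.50 to 23.4). The DBA/2J libraries of 9 months on water averaged 24.9 ± 8.30 in block 1 and 14.2 ± 5.48 in block 2 (SD, n = 6 and 16). Those of block 3 were at 12.1, 12.6 and 14.6, again above all 7 nicotinamide libraries. Sorted by group median, nicotinamide was the lowest group for all 6 genes, as their choice made likely. Above it, Myh11 and Acta2 shared an order and the other genes each had their own, and neighbouring groups overlapped in range for every gene.

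**Figure D1:**
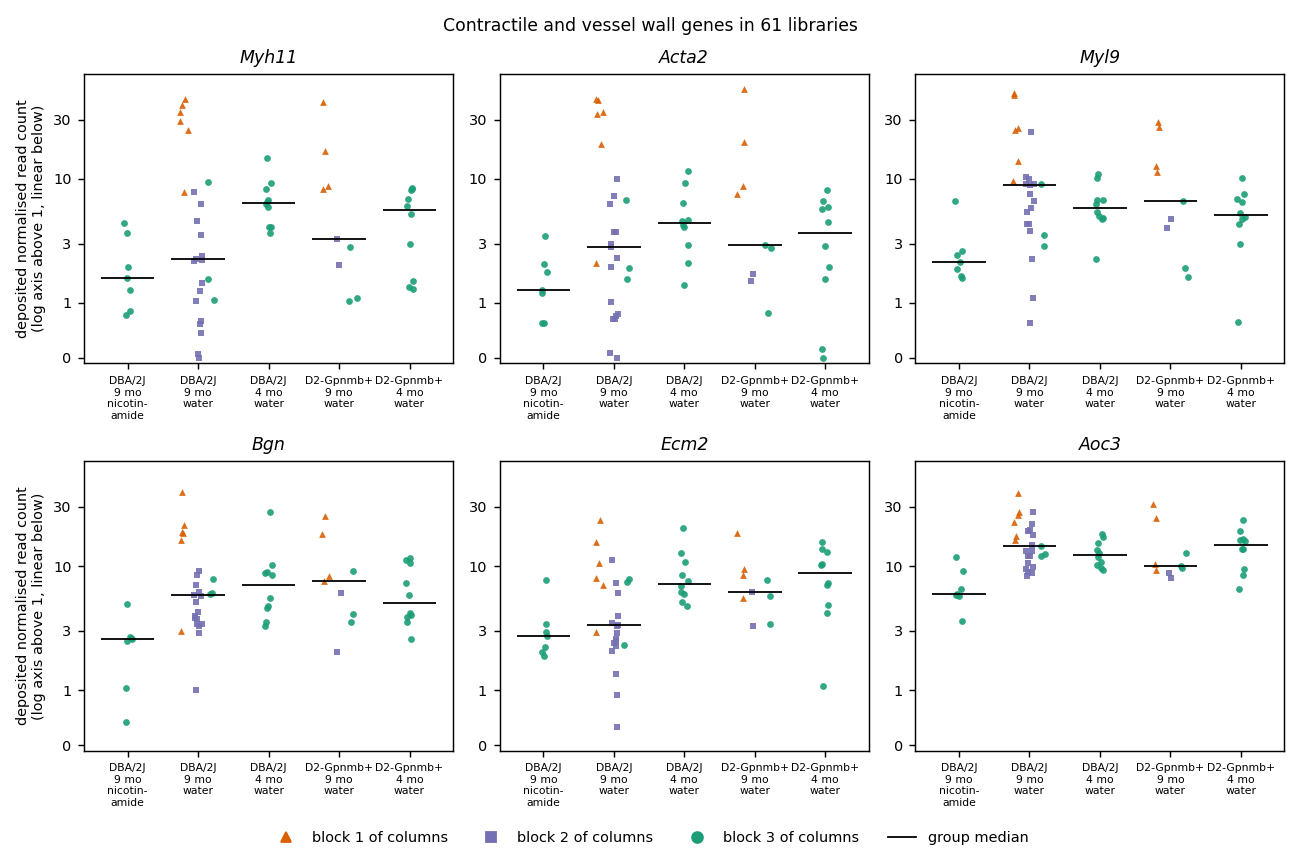
Deposited normalised read count of each gene in 61 libraries (vertical axis logarithmic above 1 and linear below), by group; colour and shape give the block of columns and lines the group median. The nicotinamide medians, from 1.26 for Acta2 to 5.97 for Aoc3, are the lowest in each panel, and the block 1 libraries of 9 months reach 52.7 for Acta2.

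On the difference that chose them, the 6 genes averaged lower in nicotinamide-treated DBA/2J libraries than in 4-month DBA/2J libraries, all from block 3. These groups differ in age as well as in treatment, and the parts of age and treatment cannot be told apart. Myh11 averaged 2.07 ± 1.42 with nicotinamide and 6.94 ± 3.26 at 4 months (SD, n = 7 and 10). Acta2 averaged 1.58 ± 0.99 and 5.12 ± 3.18 in the same groups. Myl9 averaged 2.70 ± 1.77 with nicotinamide and 6.31 ± 2.59 at 4 months. Bgn averaged 2.40 ± 1.45 with nicotinamide and 8.57 ± 7.09 at 4 months, a mean raised by a 4-month library at 27.45. Ecm2 averaged 3.26 ± 2.02 and 8.87 ± 4.74, and Aoc3 6.925 ± 2.70 and 12.8 ± 3.12, each with nicotinamide first. On the log2(value + 1) scale, which understates changes of low genes, the differences were -1.40 for Myh11, -1.16 for Acta2, -1 for Myl9, -1.38 for Bgn, -1.195 for Ecm2 and -0.84 for Aoc3. The groups overlapped for every gene. Below the lowest 4-month library lay 6 of 7 nicotinamide libraries for Bgn, Ecm2 and Aoc3, 5 for Myh11, and 4 for Acta2 and Myl9. Nicotinamide library 8 was the highest of its group for Acta2, Myl9, Bgn and Ecm2, and library 5 for Myh11. These levels rest on few reads, from 4 to 150 per gene and nicotinamide library. With each of 17 libraries left out in turn, no difference came nearer to 0 than -0.72, that of Aoc3.

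Comparisons that share nicotinamide or 4-month DBA/2J libraries with that choice are given side by side with no test of the 6 genes. For nicotinamide against water at 9 months in DBA/2J, the log2 differences were -0.805 for Myh11, -1.055 for Acta2, -1.38 for Myl9, -1.26 for Bgn, -0.40 for Ecm2 and -1.11 for Aoc3. Within block 3, with 7 libraries against 3, they were -0.43, -0.67, -0.70, -1.275, -0.67 and -0.90 in the same gene order. Without block 1 they were -0.02 for Myh11, -0.36 for Acta2 and -0.08 for Ecm2, and between -0.88 and -0.92 for Bgn, Myl9 and Aoc3. For 9 against 4 months in DBA/2J on water, Myh11 differed by -0.59 over all libraries, -0.97 within block 3 and -1.38 without block 1, and Ecm2 by -0.80, -0.53 and -1.11. Acta2 was at -0.11 over all libraries, -0.50 within block 3 and -0.80 without block 1, and Bgn at -0.12, -0.10 and -0.50. Myl9 was at 0.38, -0.30 and -0.10 in the same order, and Aoc3 at 0.27, 0.056 and 0.08. Over all libraries but 4-month library 10, Acta2 was at 0.02 and Bgn at 0.08. For DBA/2J against D2-Gpnmb+ at 4 months, differences ran from -0.10 for Aoc3 to 0.53 for Acta2. Ecm2, at 0.10, was at -0.12 without 4-month D2-Gpnmb+ library 5. That strain comparison scaled to total reads gave 0.14 for Aoc3, while the median of all genes moved to 0.24.

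At 9 months on water, DBA/2J and D2-Gpnmb+ libraries, which the choice did not use, showed no difference in the 6 genes that passed the test. In limma with Benjamini-Hochberg adjustment over 13755 genes, 3 genes or 0.0218% had an adjusted p under 0.05 and 0 of the 6 were among them. Over all libraries Ecm2 came nearest, with 5.64 ± 5.21 in DBA/2J and 7.58 ± 4.63 in D2-Gpnmb+ (SD, n = 25 and 9). Its log2 difference was -0.56 with an SE of 0.34 and a limma adjusted p of 0.494. Within blocks 1, 2 and 3 Ecm2 was at -0.013, -0.51 and -0.0067. With block as a covariate it was at -0.17, and Aoc3 came nearest, at 0.47 (limma adjusted p = 0.358). Aoc3 averaged 16.6 ± 7.47 in DBA/2J and 13.9 ± 8.30 in D2-Gpnmb+, a log2 difference of 0.29 with an SE of 0.22 and a limma adjusted p of 0.593. Myh11 averaged 9.16 ± 13.5 in DBA/2J and 9.49 ± 13.01 in D2-Gpnmb+, and Acta2 9.28 ± 13.9 and 10.9 ± 16.7. Bgn and Myl9 were at log2 differences of -0.17 and 0.07. Signs depended on the blocks: within block 1, which holds 6 DBA/2J and 4 D2-Gpnmb+ libraries, Myh11 was at 0.78 (limma adjusted p = 0.314) and Acta2 at 0.41, and within block 3 they were at 0.585 and 0.37. Within block 2, with 16 libraries against 2, Myh11 was at -0.40 and Acta2 at 0.21. Aoc3 was positive in every block, at 0.49, 0.62 and 0.26 in blocks 1, 2 and 3, with limma adjusted p from 0.36 to 0.961.

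In D2-Gpnmb+ mice, 9-month against 4-month libraries likewise gave no call among the 6 genes. Of 12910 genes tested, 3 or 0.0232% had an adjusted p under 0.05, and 0 of the 6 did. Acta2 averaged 10.9 ± 16.7 at 9 months and 3.73 ± 2.84 at 4 months (SD, n = 9 and 10), a log2 difference of 0.75 with an SE of 0.58 and a limma adjusted p of 0.38. Myl9 averaged 10.9 ± 10.2 at 9 months and 5.39 ± 2.58 at 4 months, a log2 difference of 0.55 with an SE of 0.44 and a limma adjusted p of 0.392. Myh11 and Bgn were at log2 differences of 0.26 and 0.30, with standard errors of 0.51 and 0.35, and Ecm2 and Aoc3 were at -0.13 and -0.12. On recovered reads, with no pseudocount of 1, DESeq2 gave larger log2 differences of 1.55 for Acta2, 1.01 for Myl9 and 0.92 for Myh11, with DESeq2 adjusted p of 0.154, 0.113 and 0.249. The edgeR values for these genes were 1.56, 1.03 and 0.93. All of the 9-month libraries above the 4-month range came from block 1. Within block 3, with 3 libraries against 10, all 6 differences were negative, from -1.04 for Myh11 to -0.14 for Bgn, each with a limma adjusted p of 0.999. There Myh11 was at 1.035, 1.085 and 2.81 at 9 months, and 7 of the 10 libraries of 4 months lay above all 3.

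**Figure D2:**
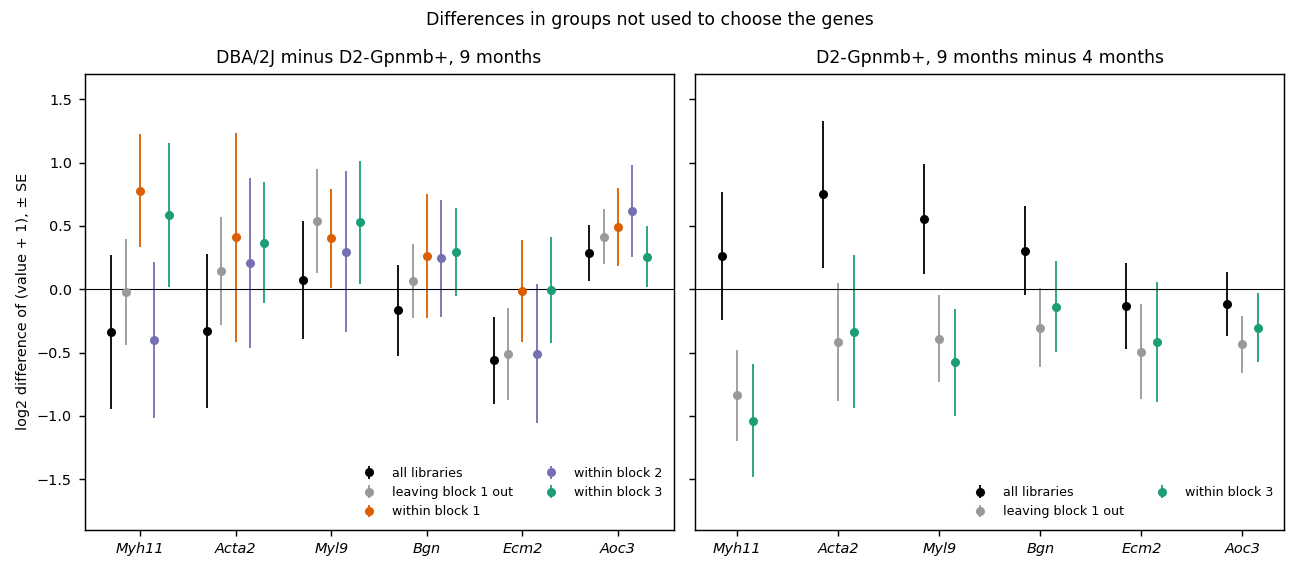
Log2 difference of (value + 1) with its standard error (vertical axis) for each gene (horizontal axis), DBA/2J minus D2-Gpnmb+ at 9 months on the left and 9 minus 4 months in D2-Gpnmb+ on the right; colours give the libraries used. In the age comparison Acta2 is at 0.75 over all libraries and at -0.33 within block 3.

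In nicotinamide against 4-month DBA/2J libraries limma called 200 of 13024 genes, 1.54%. Calls among the lists of other smooth muscle and vessel wall genes are given beside that share. Of 16 other contractile genes tested, 0 were called, and their median log2 difference was -0.19 against 0.01 for all genes. Cald1, the actin-binding caldesmon, averaged 29.3 ± 4.45 with nicotinamide and 41.3 ± 14.2 at 4 months (limma adjusted p = 0.221). Mylk, the kinase that phosphorylates the myosin light chain, averaged 84.2 ± 22.3 and 62.2 ± 14.6 in those groups (limma adjusted p = 0.227). Tagln, which encodes the smooth muscle protein transgelin, was near 1 in both, at 1.22 ± 0.34 with nicotinamide and 1.35 ± 0.53 at 4 months. Cnn1 and Actg2 of this list were not in the table. Several of these genes are not particular to muscle, and Gucy1a3, a subunit of the nitric oxide receptor, reached 352.

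Among 16 regulators of smooth muscle genes, 2 were called, both lower in the nicotinamide libraries, which also differ from the 4-month libraries in age. Notch3, the Notch receptor of arterial smooth muscle and pericytes, averaged 6.45 ± 1.94 with nicotinamide and 12.6 ± 4.66 at 4 months, a log2 difference of -0.84 with a limma adjusted p of 0.0301. Tgfb2, a transforming growth factor beta ligand, averaged 485 ± 104 with nicotinamide and 702 ± 131 at 4 months, a log2 difference of -0.54 with a limma adjusted p of 0.0401. Its level stood far above that of any of the 6 genes, and which cells held it was not tested. Myocd, the myocardin gene, averaged 1.15 ± 0.72 with nicotinamide and 2.58 ± 1.03 at 4 months and did not pass (limma adjusted p = 0.0873), and Srf was at 11.3 ± 1.11 and 11.5 ± 2.19. Of 15 matrix genes 1 was called: Col4a2, a collagen chain of the vascular basement membrane, averaged 35.6 ± 6.715 with nicotinamide and 50.9 ± 6.68 at 4 months, a log2 difference of -0.52 with a limma adjusted p of 0.0238. The matrix list had a median of -0.37, and the 6 other small leucine-rich proteoglycans tested had 0 calls and a median of -0.29. The 16 tested genes for other actins, myosin II chains and amine oxidases had 0 calls and a median of -0.01.

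The 3 calls lay near the threshold, and with libraries left out the differences moved little. Over 17 such fits Notch3 stayed between -0.94 and -0.74, Tgfb2 between -0.62 and -0.46, and Col4a2 between -0.57 and -0.43. The call of Notch3 was lost, with limma adjusted p from 0.05 to 0.0988, without nicotinamide library 1, 3, 5 or 7 or 4-month library 2, 4 or 6. Tgfb2 was lost, at 0.0516 to 0.11, without nicotinamide library 1, 3, 4, 5 or 7 or 4-month library 2, 4, 5, 6, 7, 9 or 10. Col4a2 was lost without nicotinamide library 3 or 5, with limma adjusted p of 0.0616 and 0.0642.

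**Figure D3:**
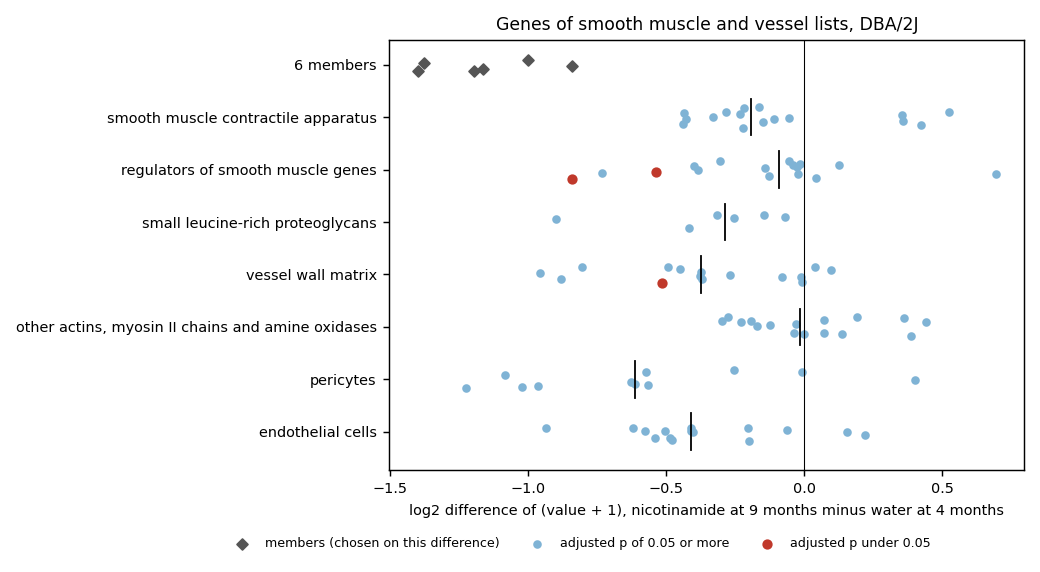
Log2 difference of (value + 1) between nicotinamide-treated DBA/2J libraries of 9 months and 4-month DBA/2J libraries (horizontal axis) for the 6 genes and for genes of 7 lists (rows); short lines are list medians and red marks an adjusted p under 0.05. The 6 genes lie between -1.40 and -0.84 because they were chosen on this difference, and the pericyte list has the lowest list median, -0.61.

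Markers of pericytes and endothelium stood beside the 6 genes in the same libraries. The 15 pericyte markers summed to 116 to 211 with a median of 151 in nicotinamide libraries and to 88.6 to 439 with a median of 181 in 4-month DBA/2J libraries. Of 11 pericyte markers tested 0 were called, 10 differed in the negative direction, and the median was -0.61. The exception was Vtn, which encodes vitronectin and was looked at after its values were seen. It was the most abundant of those tested, at 81.7 ± 21.6 with nicotinamide and 62.6 ± 20.5 at 4 months, and weighed heavily in the sums. Its log2 difference of 0.40 had the sign of the rod list, whose median was 0.70. For age Vtn was at 0.67 in DBA/2J and -0.36 in D2-Gpnmb+, uncalled, beside rod list medians of 0.96 and -0.76. Abcc9, a potassium channel subunit, averaged 26.9 ± 12.9 with nicotinamide and 61.05 ± 40.3 at 4 months (limma adjusted p = 0.184). Rgs5, a regulator of G protein signalling typical of pericytes, averaged 20.1 ± 9.89 with nicotinamide and 51.2 ± 32.7 at 4 months (limma adjusted p = 0.0941). The 23 endothelial markers summed to 147 to 335 with a median of 170 with nicotinamide and to 128 to 475 with a median of 212 at 4 months, with 0 of 15 called and a median of -0.41. Summed levels of both lists, with Vtn included, overlapped between the groups. Fibroblast markers summed to at most 10.2 in nicotinamide libraries and 11.7 in 4-month DBA/2J libraries. Rod markers lay the other way: the 10 genes summed to 6878 to 16010 with nicotinamide and to 3907 to 8873 at 4 months, with 2 of 10 called higher and a median of 0.70. All 10 bipolar cell genes differed in the negative direction, with 1 called lower and a median of -0.41. Of 10 Müller glia and astrocyte genes 7 were negative, with 0 called and a median of -0.21. The 8 amacrine and horizontal cell genes tested had 1 called higher and a median of 0.26. The part of these cell types in the levels of the 6 genes was not tested.

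In DBA/2J the sums of pericyte markers, endothelial markers and the 6 genes all reached higher values in block 1 than in block 2. In block 1 the summed pericyte markers lay between 281 and 1387 for DBA/2J and between 373 and 616 for D2-Gpnmb+, against 104 to 457 in the DBA/2J libraries of block 2. The endothelial markers summed to values between 609 and 881 for DBA/2J and between 1134 and 1499 for D2-Gpnmb+ in block 1, against 194 to 566 in DBA/2J in block 2. Kdr and Flt1 weighed most in the endothelial sums: in 9-month D2-Gpnmb+ libraries they averaged 343 and 234, and Pecam1 8.23. For age in D2-Gpnmb+ their log2 differences were 1.27 and 1.31, uncalled. The list medians there were 0.32 for endothelial markers and 1.19 for Müller glia and astrocytes. The 6 genes together summed to 43.2 to 237 in block 1 DBA/2J libraries and to 21.2 to 55.6 in block 2. In D2-Gpnmb+ they summed to 52.9 to 188 in block 1 and to 24.9 to 26.6 in block 2. Within block 1 their median sum was 149 in DBA/2J and 89.3 in D2-Gpnmb+, while the endothelial sums lay higher in D2-Gpnmb+. What differs between the blocks besides, and its part in the levels, was not tested.

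**Figure D4:**
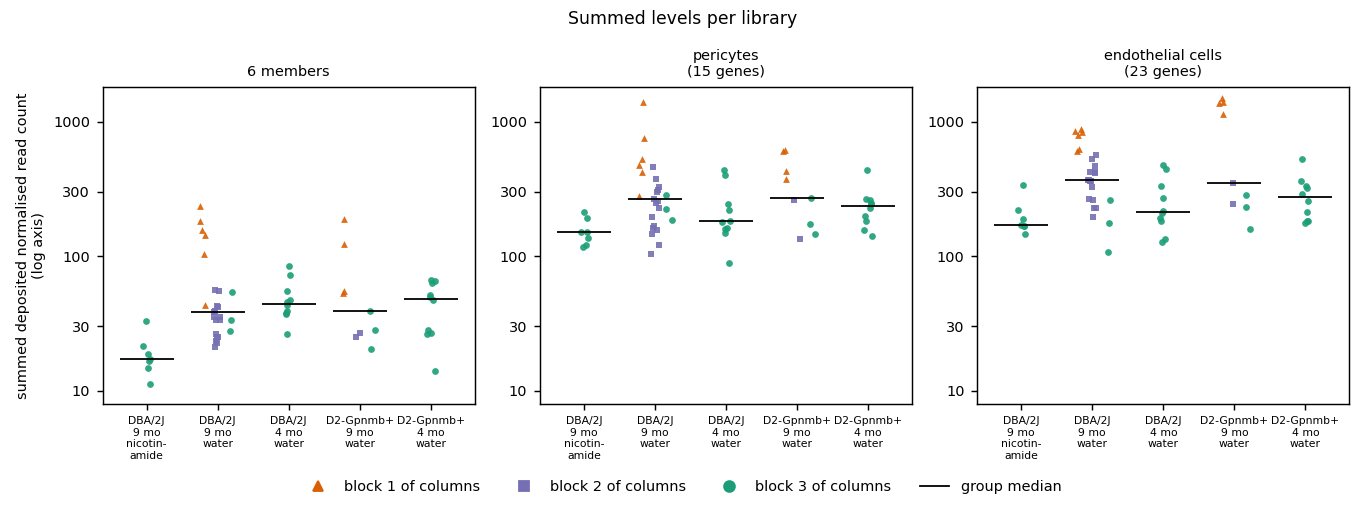
Summed deposited normalised read count per library (vertical axis, logarithmic) of the 6 genes, 15 pericyte markers and 23 endothelial markers, by group; colour and shape give the block and lines the group median. The 6 genes have a median sum of 17.3 with nicotinamide and 44.3 at 4 months in DBA/2J, and block 1 libraries are the highest for endothelial markers in both strains.

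Of the other comparisons, nicotinamide against water and age in DBA/2J had calls among these lists. DBA/2J against D2-Gpnmb+ gave 0 calls in every smooth muscle and vessel list at 9 months, and 0 at 4 months, where 0.25% of 12804 genes were called. Nicotinamide against water at 9 months called 15.1% of 13925 genes. Other cell types had calls too: 8 of 8 amacrine and horizontal cell genes were higher with nicotinamide. Lower were 4 of 10 Müller glia and astrocyte genes and 4 of 9 microglia and macrophage genes, while rod and bipolar cell genes had 0 calls. Gucy1a3 averaged 248 ± 56.0 with nicotinamide and 98.1 ± 46.0 on water (limma adjusted p = 0.000179), Col4a1 30.9 ± 10.3 and 59.0 ± 23.9 (limma adjusted p = 0.00467), and Pdgfrb, the platelet-derived growth factor receptor of pericytes, 10.85 ± 3.45 and 41.5 ± 44.3 (limma adjusted p = 0.0295). Calls numbered 1 of 18 contractile genes (higher with nicotinamide), 4 of 18 regulators (2 higher, 2 lower) and 8 of 18 matrix genes (2 higher, 6 lower). The 3 of 14 pericyte markers and 4 of 23 endothelial markers called were all lower. Of 21 genes that the naming rule picked from these calls, 16 were called without block 1. Within block 3, which has 3 water libraries, 19 could be tested and 0 were called, with the lowest limma adjusted p at 0.0727, for Myh10. The log2 differences there were 0.59 for Myh10 (0.81 over all libraries), 0.80 for Gucy1a3 (1.43), -0.75 for Col4a1 (-0.88) and -0.49 for Pdgfrb (-1.355), and those of Rock1, Rock2, Sparc, Cox4i2 and Flt1 had the opposite sign. For 9 against 4 months in DBA/2J, 22.4% of 13587 genes were called. Among other cell types, 7 of 8 amacrine and horizontal cell genes and 3 of 10 bipolar cell genes were called lower. Called higher were 8 of 9 microglia and macrophage genes, 5 of 10 Müller glia and astrocyte genes and 3 of 10 rod genes. Gucy1a3 fell to 98.1 ± 46.0 at 9 months, against 197 ± 64.7 at 4 months (limma adjusted p = 0.000406). Myocd fell to 0.966 ± 1.20 at 9 months, against 2.58 ± 1.03 at 4 months (limma adjusted p = 0.00385). Vwf, an endothelial marker, rose to 3.52 ± 3.01 at 9 months, against 0.589 ± 0.470 at 4 months (limma adjusted p = 0.00208). Calls were 3 lower of 18 contractile genes, 1 higher and 3 lower of 17 regulators, and 4 higher and 2 lower of 17 matrix genes. Of 13 pericyte markers 2 were called higher, and of 23 endothelial markers 2 were called higher, with 0 lower in either list. Of 22 genes so picked, 14 were called without block 1 and 0 of 20 within block 3, where the limma adjusted p was 0.65 for Gucy1a3, 0.552 for Myocd and at its lowest 0.0816, for Vwf. With 3 libraries against 10, the log2 difference of Vwf, the von Willebrand factor gene of endothelium, was 1.235 within block 3 and 1.28 over all libraries. That of Myocd was -0.61 and -0.999, and that of Gucy1a3 -0.44 and -1.07. In D2-Gpnmb+ the age comparison gave 0 calls in every list.

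Libraries that held more of any 1 of the 6 genes tended to hold more of the others. After the mean of each group within each block was subtracted on the log2 scale, the 15 pairs had Spearman correlations from 0.22 to 0.60 over 61 libraries, with a median of 0.43. Myh11 and Acta2 were the closest pair at 0.60, and Myh11 and Aoc3 the least close at 0.22. Myl9 was about as close to Ecm2, at 0.58, as to Myh11 at 0.58 and Acta2 at 0.57. Within the 33 libraries of block 3 the range was 0.19 to 0.74 with a median of 0.52, with Myh11 and Acta2 at 0.74 and Acta2 and Myl9 at 0.73. All genes of a library share its depth and its mix of cells, so these correlations are descriptions and carry no p.

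Outside the 6, the pattern most like that of Acta2 across the same residuals of 14481 genes was that of Pde5a, at a Spearman correlation of 0.73 and 0.70 within block 3. Myl9 was closest to Igfbp7 and Rgs5, at 0.68 each, and to Mgp at 0.65. Bgn was closest to Klf4 at 0.68 and to Rgs5 at 0.65. Ecm2 had Anpep at 0.71 and Rgs5 at 0.61, and Aoc3 had Arpc1b at 0.67, Igfbp7 at 0.66 and Mgp at 0.62. Myh11 had Bap1 at 0.64, Rhoa at 0.64 and Ptrf at 0.59, and shared none of these with the first 3 of the other genes. Within block 3 they were at 0.58, 0.74 and 0.79. Rhoa is in the list of regulators of smooth muscle genes. Rgs5 was in the first 3 for Myl9, Bgn and Ecm2, and Mgp for Acta2, Myl9 and Aoc3.

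The genes differ in how far reads of relatives could be mixed with theirs. In mm10 and GENCODE vM21, Acta2 (ENSMUSG00000035783.9) lies at chr19:34241090-34255590, Myh11 at chr16:14194535-14291372, Myl9 at chr2:156775420-156781658, Bgn at chrX:73483602-73495933, Ecm2 at chr13:49504810-49532789 and Aoc3 at chr11:101330605-101341938, all protein coding. The longest open reading frame of Acta2 shared 85.4% of bases with that of Acta1 and 83.2% with that of Actb, whose median of 184 in these libraries was far above that of Acta2, 2.93. The longest identical run between their transcripts was 47 bases for Actb and 56 for Actg1. Myl9 shared 86.3% with Myl12b, whose median was 68.7, with no identical run over 35 bases. Myh11 shared a run of 65 bases with both Myh9 and Myh10, whose medians of 19.3 and 53.3 stood above its own of 3.68. Aoc3 and Aoc2 shared a run of 125 bases, and Aoc2 had a median of 3.88. Low levels of Myh11, Acta2, Myl9 and Aoc3 are uncertain to the extent that reads were placed on the wrong copy. Ecm2 overlaps Cenpp on the opposite strand without shared exon bases, and Aoc3 overlaps the antisense gene Gm28156, which is not in the table.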

How the data were processed

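Retinal cells sorted for Thy1.2 were sequenced in 61 libraries. The submitters' processing notes name TopHat2 2.0.7, Bowtie2 2.0.6, HTSeq and the mm10 build. What the authors deposited is a signal per gene, normalised read counts; how they normalised is not given in the sources used here. Of 15171 rows, 22 with dates for names were dropped. Divided by the value of 1 read, found from the low values, 100% of values in every library were whole within 0.05, with 5133114 to 19501444 reads per library; intervals and floors (3 reads) cover counting error only. The 6 genes, lists and alternatives were chosen with earlier results of these data known, and so was the division into 3 blocks.

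Main test: limma 3.58.1 (trend, robust) in R 4.3.3 on log2(value + 1), only the groups compared, genes at 1 or more in as many libraries as the smaller group, Benjamini-Hochberg threshold 0.05, in place of the edgeR test planned for counts. All 6 genes passed this filter in every comparison. Alternatives were other pseudocounts, filters and scalings, edgeR 4.0.16 and DESeq2 1.42.0 on recovered reads, blocks, and each library left out. Named list genes were up to 4 per list and comparison with the lowest adjusted p under 0.05 and a mean of 1 or more; other values named were chosen after they were seen. Scripts were tested on simulated data. Columns match groups, not single samples.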

Additional observations from a re-analysis of the deposited data

Results flagged for a closer look

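In 24 combinations of gene and group of 7 to 10 libraries, 8 held a library whose gap to the next exceeded Dixon's 95% critical value. The rate of about 1 in 20 by chance holds for independent, normally distributed values. All 8 were the highest library of their group on the deposited scale, the genes are correlated, and 9-month D2-Gpnmb+ spans 3 blocks. The 8 can therefore not be set against that rate. In nicotinamide-treated DBA/2J, library 8 stood above the rest for Myl9, at 6.61 with the next at 2.63, and for Ecm2, at 7.69 with the next at 3.39. In 4-month DBA/2J, library 4 was high for Myh11 (14.7, next 9.19), library 10 for Bgn (27.5, next 10.3) and library 9 for Ecm2 (20.3, next 12.8). In 9-month D2-Gpnmb+, library 4, of block 1, was high for Myh11 (41.4, next 16.8), Acta2 (52.7, next 19.7) and Ecm2 (18.6, next 9.46).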

How the results depend on the processing

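None of the 6 genes passed the threshold under any alternative or with any library left out in the comparisons that tested them, and edgeR and DESeq2 called none, though DESeq2 gave no adjusted p for 5 of the 6 in the strain comparison. In DBA/2J against D2-Gpnmb+ at 9 months (log2 -0.34, -0.33, 0.07 and -0.17 for Myh11, Acta2, Myl9 and Bgn) signs turned: Myh11 was at 0.585 within block 3, 0.36 with block as a covariate and 0.78 within block 1. Acta2 was at 0.37, 0.33 and 0.41 in these, 0.14 without block 1 and 0.21 within block 2. Bgn was at 0.29, 0.26, 0.26, 0.066 and 0.24 in the same order, and Myl9 at -0.036 scaled to total reads. Leaving out single libraries gave Myh11 -0.54 to 0.0095, Acta2 -0.56 to 0.055, Myl9 -0.14 to 0.30 and Bgn -0.35 to 0.042. For age in D2-Gpnmb+, within block 3 and with block as a covariate Myh11 was at -1.04, Acta2 at -0.33, Myl9 at -0.58 and Bgn at -0.14, and without block 1 at -0.84, -0.42, -0.39 and -0.30. Scaled to total reads, which moved the median of all genes to 0.31, Ecm2 was at 0.17 and Aoc3 at 0.21. Myh11 ran from -0.085 to 0.46 with single libraries left out. For age in DBA/2J, within block 3 and with the covariate Tgfb2 was at 0.021, Tgfbr2 at -0.098, Rock1 at 0.0088, Nyx at 0.22, Col5a1 at -0.67, Sparc at -0.71, Loxl1 at -0.069, Cox4i2 at -0.57 and Flt1 at -0.84, all reversed. For nicotinamide against water so were Rock1 at -0.033, Rock2 at -0.13, Sparc at 0.34, Cox4i2 at 0.56 and Flt1 at 0.64. The cause of these reversals was not tested.

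Counts of called genes moved most. The strain comparison at 9 months called 3 genes, but 11 by edgeR, 318 by DESeq2, 1648 within block 1, 0 scaled to total reads, within block 2, within block 3 or without block 1, and 0 to 55 with single libraries left out. Age in D2-Gpnmb+ called 3, but 1495 by edgeR, 2114 by DESeq2, 0 scaled to total reads, within block 3 or with the covariate, 1 without block 1, and 0 to 2069 with libraries left out, the highest without 9-month library 13. Nicotinamide against 4 months called 200, but 499 by DESeq2 and 16 to 413 with libraries left out, the lowest without nicotinamide library 5 and the highest without nicotinamide library 8. Nicotinamide against water called 2105, but 1 within block 3, 0 with the covariate and 1294 to 2540 with libraries left out. Age in DBA/2J called 3044, but 36 within block 3 and 8 with the covariate. Strain at 4 months called 32, but 20 scaled to total reads, 240 by DESeq2 and 6 to 92 with libraries left out. The share called higher moved from 64.7% to 45.3% by edgeR and 78.4% by total reads for nicotinamide against water, and from 40.6% to 95% by total reads for strain at 4 months. Levels of 4 to 150 reads per nicotinamide library limit what these data can resolve. No paired analysis was possible because the column numbers do not tie libraries of one group to those of another.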
